A study of Homo sapiens with 6 samples.

Results

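The D cyclins CCND1, CCND2 and CCND3, their catalytic partners CDK4 and CDK6, the cyclin-dependent kinase (CDK) inhibitors CDKN1B, CDKN2A, CDKN2B and CDKN2C and the pocket protein gene RB1 form the switch by which growth signals start the cell cycle. These 10 genes were chosen by name, and 9 of them had at least 1 probe set annotated to that gene alone, 24 probe sets in all out of 54613. CDKN2C was not analysed here. Transcripts were measured on Affymetrix U133 Plus 2.0 GeneChips in the parental line SH-SY5Y, a human neuroblastoma (NB) line that carries the ALK F1174L mutation and is sensitive to the ALK inhibitor TAE684, and in SY5Y-TR1 cells, a TAE684-resistant subclone obtained from SH-SY5Y by long exposure to rising doses. Both lines carry F1174L. SY5Y-TR1 cells were kept in medium with 1 μM TAE684 and SH-SY5Y cells in medium alone, so the resistant state and the presence of the drug cannot be told apart, and SY5Y-TR1 is a single subclone. Each line was measured on 3 arrays, labelled as biological replicates. The cultures behind them are not described, and the p-values measure the spread between these arrays only.

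D cyclins are made in response to mitogenic signals such as ERK activity, bind CDK4 or CDK6, and let these kinases phosphorylate RB1. Phosphorylated RB1 releases the E2F transcription factors, which then switch on the genes of DNA replication. The INK4 inhibitors (CDKN2A, which encodes p16 and, from another reading frame, ARF; CDKN2B, p15; CDKN2C, p18) bind CDK4 and CDK6 themselves, whereas the CIP/KIP inhibitor CDKN1B (p27) acts mainly on CDK2 complexes and is also carried by complexes of D cyclins with CDK4. In NB, high CCND1 and CDK4 are known features of many tumors.

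Signals are on the log2 scale of RMA (robust multi-array average), on which a difference of 1 is a 2-fold change. Each gene is represented by its probe set with the highest mean over the 6 arrays, as are the other genes of the 19775 tested, and the word called is kept for genes that differed at least 2-fold with an adjusted p under 0.05 from limma. Signals at or under 6.21, the 90th percentile of the means of 42 genes of unrelated tissues, were taken as background. Median log2 signals ran from 5.56 to 5.59 between arrays, and arrays of a line correlated across probe sets with Pearson's r of 0.997 to 0.998, those of different lines with 0.959 to 0.960. Of 13 measured noradrenergic neuroblast markers, 12 were above background in at least 1 line, TH was not, and 10 were lower in SY5Y-TR1; their summed linear signal was 29210 to 30234 in SH-SY5Y and 5124 to 5369 in SY5Y-TR1. Of 9 fibroblast markers 4 were higher and 3 lower, with sums of 13756 to 14459 and 27930 to 30420. Over all genes 5.36% were called higher and 5.99% lower. Linear sums weigh the brightest genes most. In SH-SY5Y and SY5Y-TR1, COL3A1 averaged 13.17 and 13.74 and COL1A1 9.72 and 13.45, whereas the 3 lower markers were PDGFRA, DCN and LUM. Of 6 Schwann, 6 blood and 7 endothelial markers, all but SOX10 and HBB lay at background. The part of these shifts in the results below was not tested. The arrays measure RNA in bulk, so fewer cells of a type and less RNA per cell cannot be told apart.

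Among the 9 measured members, CDKN1B fell in SY5Y-TR1 cells, and it was the 1 gene of the 9 that was called (11.1%), against 11.4% of all genes tested and 17.5% of the 11968 genes above background in at least 1 line. Of the 9, 0 were called higher by limma or by the methods' t-test, against 5.36% of all genes by limma. At an unadjusted p under 0.05 from limma with no fold limit, 3 were higher and 4 lower, beside 6191 and 5125 of all 19775 genes. At an adjusted p under 0.05 with no fold limit, CCND1, CCND3 and CDKN2A read higher and CDK4, CDK6, CDKN1B and RB1 lower, 7 of 9 (77.8%) against 52.8% of all genes and 74.1% of those above background. At 1.5-fold with that adjusted p, CDK4, CDK6 and CDKN1B were lower and CDKN2A higher, 4 of 9 against 21.9% of all genes. The share among genes above background was not counted at that limit. For the same 7 genes (77.8%) the arrays of the lines did not overlap, against 59.8% of all genes. CCND2 and CDKN2B lay at background in both lines. The median log2 fold change of the 9 members was 0.03, beside 0.04 over all genes, with 5 values above 0 and 4 below.

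**Figure D1:**
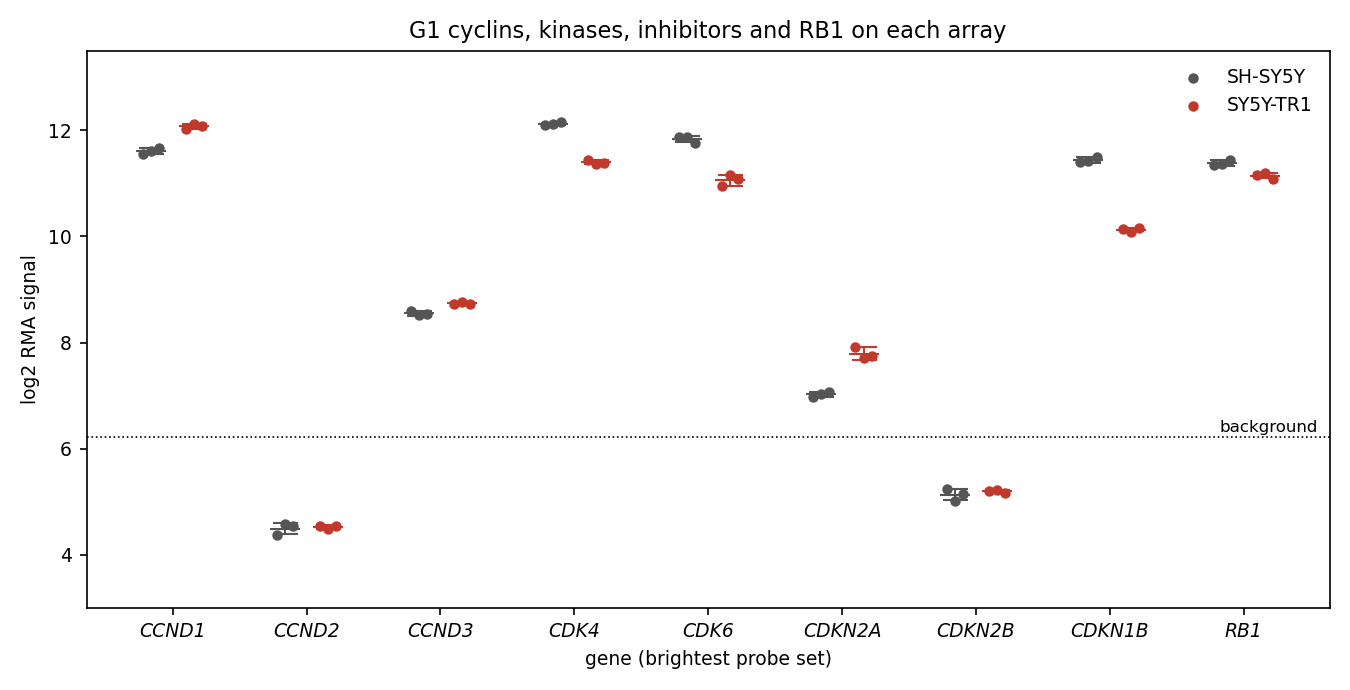
Log2 RMA signal (y axis) of the brightest probe set of each of the 9 measured genes (x axis); each point is 1 of 3 arrays of a line, grey for SH-SY5Y and red for SY5Y-TR1, with the mean and SD as bars, and background (6.21) is the dotted line. CDKN1B stands apart by the widest gap, from 11.44 to 10.13, CDK4 and CDK6 lie lower and CCND1 and CDKN2A higher in SY5Y-TR1, and CCND2 and CDKN2B stay under the dotted line.

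CCND1, which encodes cyclin D1, was abundant in both lines and read higher in SY5Y-TR1 on every array. Its signals were 11.55, 11.61 and 11.66 in SH-SY5Y replicates 1 to 3 and 12.03, 12.12 and 12.08 in SY5Y-TR1 replicates 1 to 3. The means were 11.60 ± 0.06 and 12.08 ± 0.05 (SD, n = 3 arrays each). The log2 fold change was 0.47 with a standard error of 0.05 (95% interval 0.35 to 0.59, adjusted p = 0.000163 from limma), or 1.39-fold, which lay under the 2-fold limit. The other CCND1 probe set read 11.37, 11.42 and 11.41 against 12.01, 12.01 and 12.04, which is a log2 fold change of 0.62, also under that limit. Both CCND1 probe sets therefore ran the same way.

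CCND3, which encodes cyclin D3, read 8.59, 8.51 and 8.54 in SH-SY5Y and 8.73, 8.77 and 8.72 in SY5Y-TR1. The lines did not overlap, yet the difference was 1.14-fold (log2 fold change 0.19, 95% interval 0.09 to 0.29, adjusted p = 0.008 from limma), and its second probe set was at background. CCND2, the cyclin D2 gene, gave 4.37, 4.57 and 4.54 in SH-SY5Y and 4.54, 4.49 and 4.54 in SY5Y-TR1. All 4 probe sets of CCND2 lay at background on all 6 arrays, so a change in it was not detectable at this signal (log2 fold change 0.03, 95% interval -0.12 to 0.18), and no fold is given.

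CDK4 and CDK6, the kinases that D cyclins activate, both read lower in SY5Y-TR1 and both stopped short of the 2-fold limit. CDK4 gave 12.10, 12.11 and 12.15 in SH-SY5Y and 11.44, 11.37 and 11.38 in SY5Y-TR1. The means of 12.12 ± 0.03 and 11.40 ± 0.04 (SD, n = 3 arrays each) were 1.65-fold apart (log2 fold change -0.72, standard error 0.04, 95% interval -0.82 to -0.62, adjusted p = 7.77e-06 from limma). Every SY5Y-TR1 array was thus below every SH-SY5Y array for CDK4, which was measured by 1 probe set. CDK4 is encoded on chromosome 12, and the 250 bases ahead of its RefSeq start (GRCh38.p14, chr12:57752311-57752560, minus strand) are shown because they hold the E-box CACGTG, the sequence that MYC proteins bind, 3 times. Capitals mark the E-boxes, the first of which begins at base 35 and the last at base 150.
CDK4: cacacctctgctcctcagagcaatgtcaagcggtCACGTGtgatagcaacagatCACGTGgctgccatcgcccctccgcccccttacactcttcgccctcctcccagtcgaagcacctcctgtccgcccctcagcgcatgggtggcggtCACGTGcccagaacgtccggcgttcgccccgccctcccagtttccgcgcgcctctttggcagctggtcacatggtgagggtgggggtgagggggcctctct
The motif reads the same on both strands. It was present at least 1 time in 6.35% of the 35114 RefSeq starts searched over the same 250 bases and at least 3 times in 0.0797% (28 starts). The limit of 3 is the count found ahead of CDK4 itself, so the second share describes that count and tests nothing. Among the other members with a start in the table, CACGTG was found ahead of 2 of the 3 starts of CDKN2C and ahead of none of the starts listed for CCND3, CDK6, CDKN1B, CDKN2A and CDKN2B. The table lists no start of CCND1 or CCND2, so their upstream sequences were not searched. Its RB1 start lies inside the gene, and the search result for it is left out here. A match is a description of letters and not of binding.

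CDK6 read 11.87, 11.88 and 11.77 in SH-SY5Y and 10.95, 11.15 and 11.07 in SY5Y-TR1 by its brightest probe set. The means of 11.84 ± 0.06 and 11.06 ± 0.10 (SD, n = 3 arrays each) differed by 1.72-fold (log2 fold change -0.78, standard error 0.06, 95% interval -0.93 to -0.63, adjusted p = 4.39e-05 from limma). CDK6 was the member with the most probe sets, and these did not give the same answer. The second brightest read 11.58, 11.25 and 11.75 against 10.37, 10.35 and 9.92 and was called lower, 2.48-fold (log2 fold change -1.31, 95% interval -1.70 to -0.93), with a wider spread between arrays than the others. The next, dimmer pair gave log2 fold changes of -0.85 and -0.66, past the adjusted p but not the fold limit. The pair after that, at mean signals of 6.80 and 6.51 in SH-SY5Y, gave -0.18 and -0.06 and did not pass, and the last was at background. Of the 7 CDK6 probe sets, 4 thus passed the adjusted p, all of them lower, and 1 was called, where 40.6% and 8.37% of all probe sets did so.

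**Figure D2:**
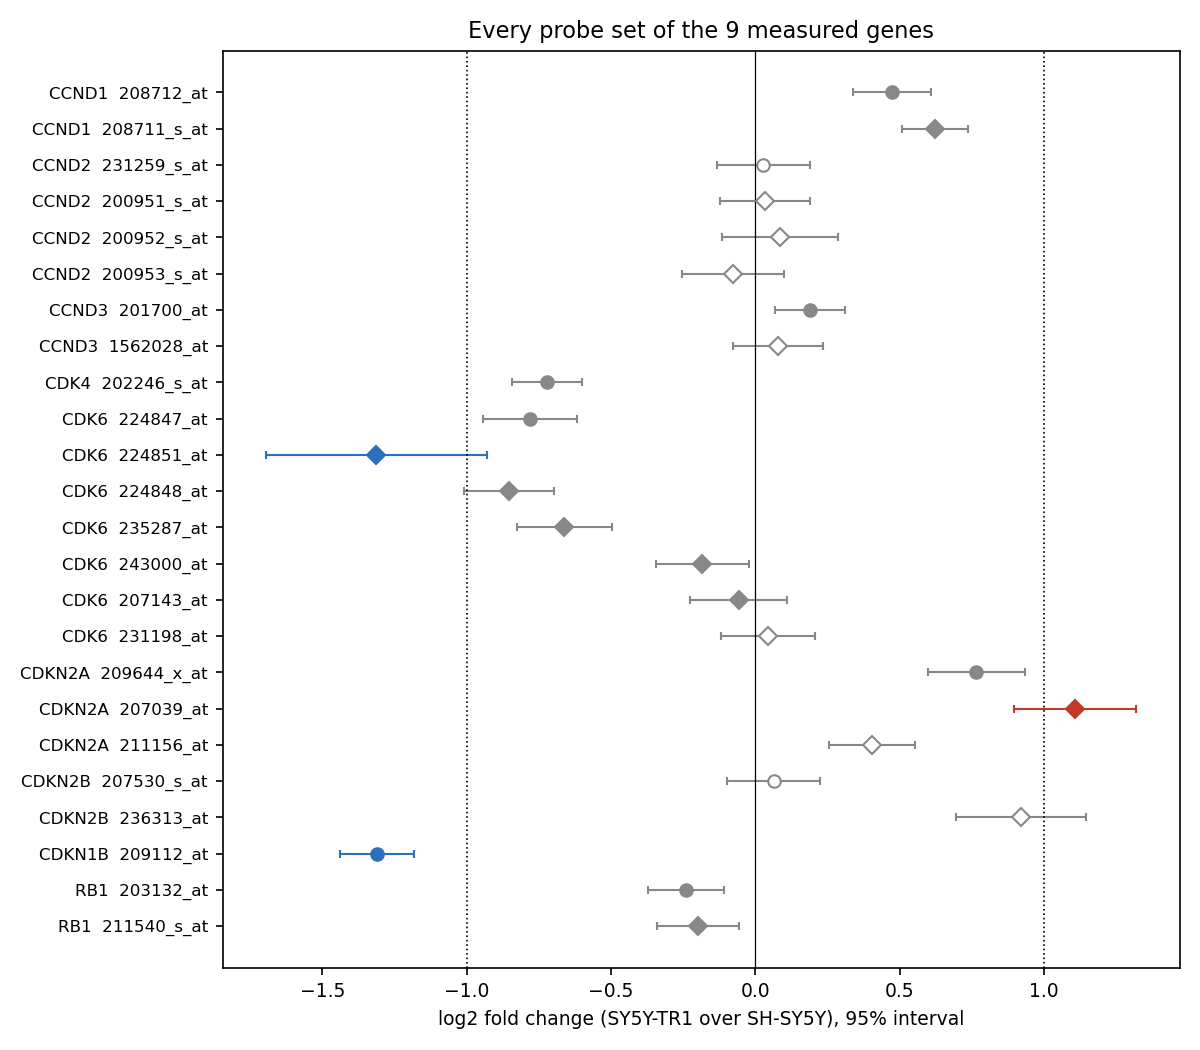
Log2 fold change (x axis, SY5Y-TR1 relative to SH-SY5Y) of each of the 24 probe sets of the 9 measured genes with its 95% interval from limma (n = 3 arrays in each line); circles are the brightest probe set of a gene and diamonds its others, open symbols lie at background in both lines, red is called higher, blue called lower and grey not called, and dotted lines mark 2-fold. The blue symbols are CDKN1B and the second brightest CDK6 probe set, the red one is the second brightest CDKN2A probe set, and the 4 CCND2 probe sets sit around 0.

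The largest difference among the members was in CDKN1B, which encodes the CIP/KIP inhibitor p27. It read 11.39, 11.43 and 11.50 in SH-SY5Y and 10.15, 10.09 and 10.15 in SY5Y-TR1. The lines were far apart beside the spread within them, at 11.44 ± 0.05 and 10.13 ± 0.03 (SD, n = 3 arrays each). CDKN1B was 2.48-fold lower in SY5Y-TR1 (log2 fold change -1.31, standard error 0.05, 95% interval -1.42 to -1.20, adjusted p = 6.25e-07 from limma), and it has 1 probe set. Over the 6 arrays, centred on their mean, the profiles nearest to that of CDKN1B belonged to the zinc-finger gene ZNF804A, the transcription factor SOX4 and the ubiquitin ligase RNF138, at root mean square distances of 0.0212, 0.0239 and 0.0254 on the log2 scale. With 2 lines and 6 arrays this likeness says that these genes were lower by a like amount. CDKN1B lies on chromosome 12, and the 250 bases ahead of its RefSeq start (GRCh38.p14, chr12:12717118-12717367, plus strand) are shown as those of the called member, with the CCAAT boxes in capitals, the first beginning at base 77 and the second at base 201.
CDKN1B: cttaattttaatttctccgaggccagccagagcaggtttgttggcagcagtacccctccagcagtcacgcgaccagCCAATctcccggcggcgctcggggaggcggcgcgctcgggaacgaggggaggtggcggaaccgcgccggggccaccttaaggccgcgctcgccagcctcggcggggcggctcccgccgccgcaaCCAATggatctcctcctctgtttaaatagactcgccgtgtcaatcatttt
CCAAT, the box bound by NF-Y, was searched on both strands and was present ahead of 32% of all starts. Neither the E2F sequences TTTCCCGC and TTTGGCGC nor the FOXO sequence GTAAACA occurred there or ahead of the listed starts of CCND3, CDK4, CDK6, CDKN2A, CDKN2B and CDKN2C, on either strand, and these were found ahead of 1.93% and 2.98% of all starts.

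CDKN2A, which encodes p16 and ARF, read higher in SY5Y-TR1. By its brightest probe set it gave 6.97, 7.04 and 7.07 in SH-SY5Y and 7.92, 7.70 and 7.75 in SY5Y-TR1, and the lines did not overlap. The means of 7.03 ± 0.05 and 7.79 ± 0.12 (SD, n = 3 arrays each) were 1.70-fold apart (log2 fold change 0.77, standard error 0.07, 95% interval 0.61 to 0.93, adjusted p = 6.02e-05 from limma). The name of this probe set marks possible cross-hybridization. The second probe set, whose name does not, read 6.01, 5.75 and 5.72 against 6.97, 6.85 and 6.98 and was called higher (log2 fold change 1.11, standard error 0.09). Since all 3 SH-SY5Y arrays lay at background there, this is at least a 1.65-fold increase. The third CDKN2A probe set was at background in both lines, with a log2 fold change of 0.40. CDKN2A was therefore called by 1 of its 3 probe sets, and its call depends on which of them stands for the gene.

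The gene has more than 1 start on chromosome 9, the outer one used for ARF and the inner one for p16, and the sources used here do not assign the probe sets to them. The 250 bases ahead of each (GRCh38.p14, minus strand, chr9:21995325-21995574 for the outer and chr9:21974858-21975107 for the inner) are shown because the locus makes separate products from them, with the GC box GGGCGG in capitals.
CDKN2A outer start: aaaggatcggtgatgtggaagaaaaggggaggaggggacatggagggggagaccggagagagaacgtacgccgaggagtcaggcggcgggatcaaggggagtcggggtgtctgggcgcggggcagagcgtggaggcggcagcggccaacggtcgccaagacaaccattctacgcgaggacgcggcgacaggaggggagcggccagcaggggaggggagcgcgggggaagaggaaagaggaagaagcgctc
CDKN2A inner start: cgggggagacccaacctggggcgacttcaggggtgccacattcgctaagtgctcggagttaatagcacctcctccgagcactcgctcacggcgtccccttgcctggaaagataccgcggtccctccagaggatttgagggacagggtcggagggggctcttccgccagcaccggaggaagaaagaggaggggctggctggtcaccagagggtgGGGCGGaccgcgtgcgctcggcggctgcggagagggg
The inner sequence held the GC box 1 time, at base 214, and the outer did not, on either strand. It was present ahead of 42.6% of all starts. Both windows were 66.8% G and C.

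CDKN2B, the neighbour of CDKN2A that encodes p15, read 5.24, 5.02 and 5.14 in SH-SY5Y and 5.20, 5.22 and 5.17 in SY5Y-TR1. Both lines lay at background and overlapped (log2 fold change 0.06, 95% interval -0.09 to 0.21, adjusted p = 0.451 from limma), so no fold is given. Its dimmer probe set averaged 3.93 ± 0.11 in SH-SY5Y and 4.85 ± 0.16 in SY5Y-TR1 (SD, n = 3 arrays each). That difference of 0.92 on the log2 scale passed the adjusted p under 0.05 from limma but lay entirely at background. RB1, the substrate of these kinases, gave 11.36, 11.36 and 11.44 in SH-SY5Y and 11.15, 11.19 and 11.09 in SY5Y-TR1. The lines did not overlap, and the difference was 1.18-fold (log2 fold change -0.24, standard error 0.05, 95% interval -0.36 to -0.13, adjusted p = 0.0045 from limma). The second RB1 probe set, near background, gave a log2 fold change of -0.20.

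Of the 3 other CDK inhibitors, CDKN1A rose and CDKN1C fell. That is 66.7% called, against 11.4% of all genes and 17.5% of those above background in at least 1 line, as all 3 were. CDKN1A, the CIP/KIP inhibitor p21 and a target of p53, read 9.87, 9.67 and 9.94 in SH-SY5Y and 12.72, 12.72 and 12.72 in SY5Y-TR1. It rose 7.43-fold (log2 fold change 2.89, 95% interval 2.72 to 3.07, adjusted p = 1.48e-07 from limma), by its only probe set. CDKN1C, the third CIP/KIP inhibitor, p57, read 8.69, 8.71 and 8.69 in SH-SY5Y and 5.84, 5.61 and 5.34, at background, in SY5Y-TR1. It fell at least 5.60-fold, 4 of its 5 probe sets were called lower, and the mean of the 5 gave a log2 fold change of -1.76 against -3.10 for the brightest. CDKN2D, the INK4 inhibitor p19, had a log2 fold change of 0.13 (95% interval -0.01 to 0.27, adjusted p = 0.0998 from limma). Within the CIP/KIP family CDKN1A was thus higher and CDKN1B and CDKN1C lower in SY5Y-TR1, whereas no measured INK4 gene was called by its brightest probe set.

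Of 35 measured genes of the G1/S machinery besides the members, 2 were higher, 10 lower and 23 were not called. That is 34.3% called, against 11.4% of all genes and 17.5% of those above background, as all 35 were. Their median log2 fold change was -0.30. Among 9 later cyclins, kinases and activators 4 fell: CDC25A, the phosphatase that activates CDK2, 4.61-fold by 2 of 3 probe sets, CCNE2 (cyclin E2) 2.79-fold, CDK2 2.13-fold by 2 of 3 probe sets, and CCNA2 (cyclin A2) 2.03-fold. CCNE1, which encodes cyclin E1, had a log2 fold change of -0.33 and was not called. CDK2 was under the limit with the mean of its probe sets (log2 fold change -0.81).

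Among 12 pocket proteins and E2F factors 3 fell and 9 were not called. That is 25% called, against 11.4% of all genes and 17.5% of those above background, as all 12 were. E2F2 was 5.46-fold lower by 1 of 3 probe sets, the repressor E2F8 3.72-fold, and RBL1, which encodes the RB1 relative p107, 2.98-fold by 2 of 4 probe sets. With the mean of their probe sets E2F2 and RBL1 were under the limit (log2 fold changes -0.94 and -0.91). Only 1 probe set of each gene was above background, so these means, and the count of called RBL1 probe sets, include probe sets at background. E2F1 had a log2 fold change of -0.30. Among 11 genes of protein turnover, all above background, 1 rose, 2 fell and 8 were not called (27.3% called, beside those same shares). SKP2, the F-box protein that marks p27 for degradation, fell 3.50-fold by all 3 probe sets, and its cofactor CKS1B fell 2.29-fold. CRYAB, a chaperone that takes part in cyclin D1 degradation, rose from background at least 1.99-fold. SKP1 and CUL1, core subunits of the SKP2 ligase, were not called, with log2 fold changes of 0.11 and -0.37.

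**Figure D3:**
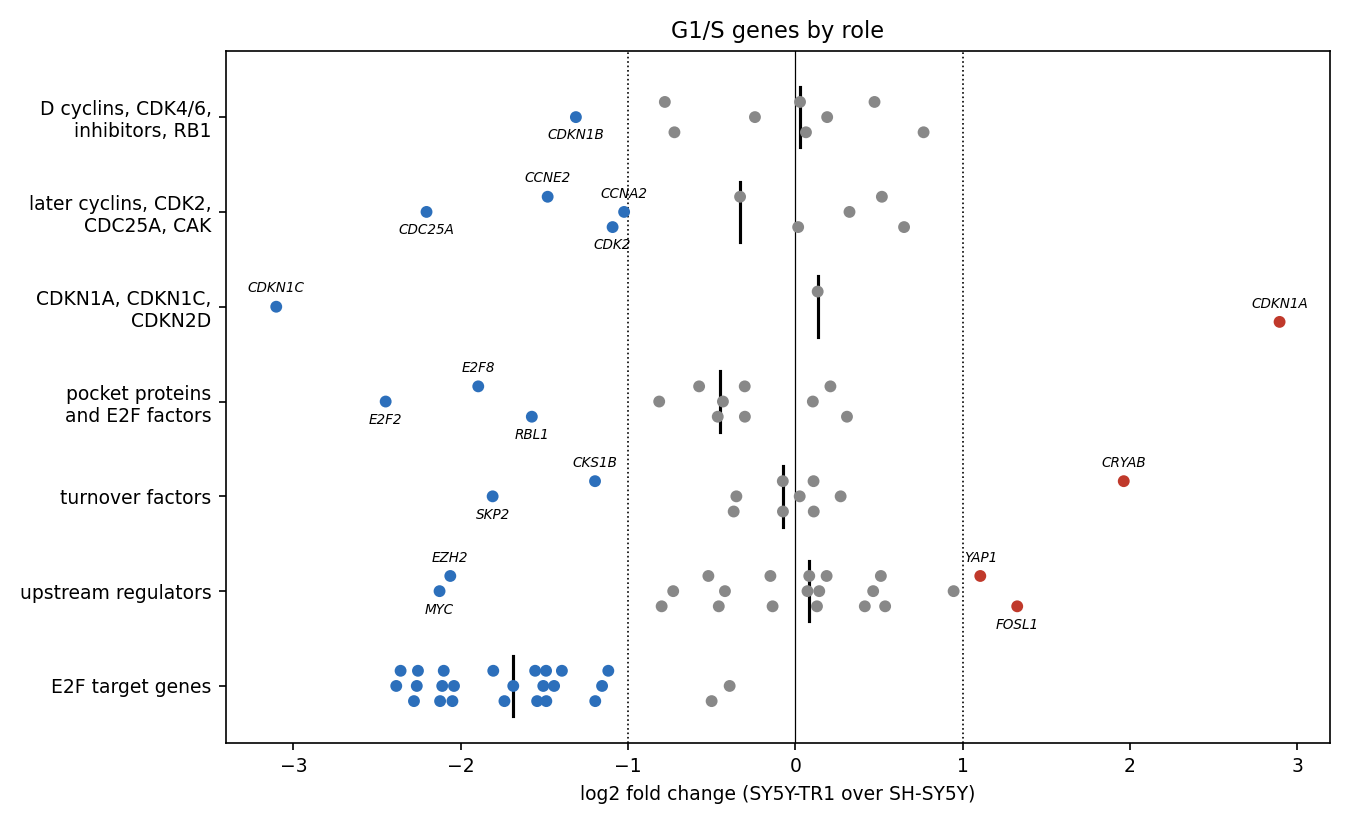
Log2 fold change (x axis, SY5Y-TR1 relative to SH-SY5Y) of each measured gene, by role (y axis); each point is a gene by its brightest probe set, red called higher, blue called lower and grey not called, black bars are group medians and dotted lines mark 2-fold. CDKN1A lies at 2.89 and CDKN1C at -3.10, and the E2F target genes all lie left of 0 with a median of -1.69.

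Genes listed as E2F targets, which span DNA replication and mitosis, were lower as a group. The part of RB1 and E2F in this was not tested. Of the 25 measured genes listed as E2F targets, 23 were lower, 2 were not called and 0 were higher by limma, also at an unadjusted p. That is 92% called, all lower, against 5.99% of all genes called lower. All 25 were above background, where 17.5% of genes were called in either direction. The median log2 fold change of the 25 was -1.69, beside 0.04 over all genes. CCNB1, the cyclin of mitotic entry, fell 5.22-fold, the proliferation antigen gene MKI67 5.13-fold by all 4 probe sets, and the transcription factor gene MYBL2 4.85-fold. PCNA, the DNA polymerase clamp, and SLBP, which binds histone mRNA, were the genes not called, with log2 fold changes of -0.50 and -0.39. Of the members with an adjusted p under 0.05, CDK4, CDK6, CDKN1B and RB1 read lower in SY5Y-TR1, as the listed targets did. CCND1, CCND3 and CDKN2A read higher. With 2 lines this restates the difference between them.

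Of 21 measured regulators known to act on D cyclin or inhibitor genes, 2 were higher, 2 lower and 17 were not called (19% called, against 11.4% of all genes and 17.5% of those above background, as all 21 were). The AP-1 subunit gene FOSL1 rose 2.51-fold and YAP1, the effector of the Hippo pathway, 2.15-fold by all 3 probe sets. MYC, the transcription factor that binds the E-box, averaged 10.02 in SH-SY5Y and 7.90 in SY5Y-TR1 and fell 4.37-fold (adjusted p = 5.91e-08 from limma). EZH2, the polycomb methyltransferase that represses CDKN2A, fell 4.18-fold. MYCN by its brightest probe set was near background (6.23 and 6.42), with a log2 fold change of 0.19 (adjusted p = 0.207 from limma). Of its 10 probe sets 1 was called lower, and their log2 fold changes ran from -2.45 to 0.30. Only 2 of the 10 were above background. The mean of the 10, which includes probe sets at background, gave -0.17 (adjusted p = 0.029 from limma). The sign for MYCN thus depended on the probe sets used.

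The nearest measured genes on either side of the members on their chromosomes, by RefSeq order in GRCh38.p14, were examined for position. TSPAN31 and MARCHF9, which flank CDK4, had log2 fold changes of 0.61 and 0.20, against -0.72 for CDK4. Beside CDK6, RBM48 had -0.05 and the interferon-responsive gene SAMD9 rose from background at least 2.16-fold. Beside CDKN1B, the receptor gene GPR19 fell to background, at least 1.86-fold, and APOLD1 had a log2 fold change of -0.35. TIGAR, the neighbour of CCND2 and a metabolic phosphatase gene, rose 3.01-fold (log2 fold change 1.59), whereas PARP11 on the other side had 0.49. LTO1 beside CCND1 had -0.16, and MYEOV on its other side was at background in SH-SY5Y and at the background level in SY5Y-TR1. BYSL and TAF8 around CCND3 had -0.50 and 0.08, and RB1-DT and LPAR6 around RB1, both at background, -0.04 and 0.04. CDKN2A-AS1 and CDKN2B-AS1, which lie among the INK4 genes, had 0.19 and -0.07 and were at background, as was DMRTA1 beyond CDKN2B with 0.33.

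**Figure D4:**
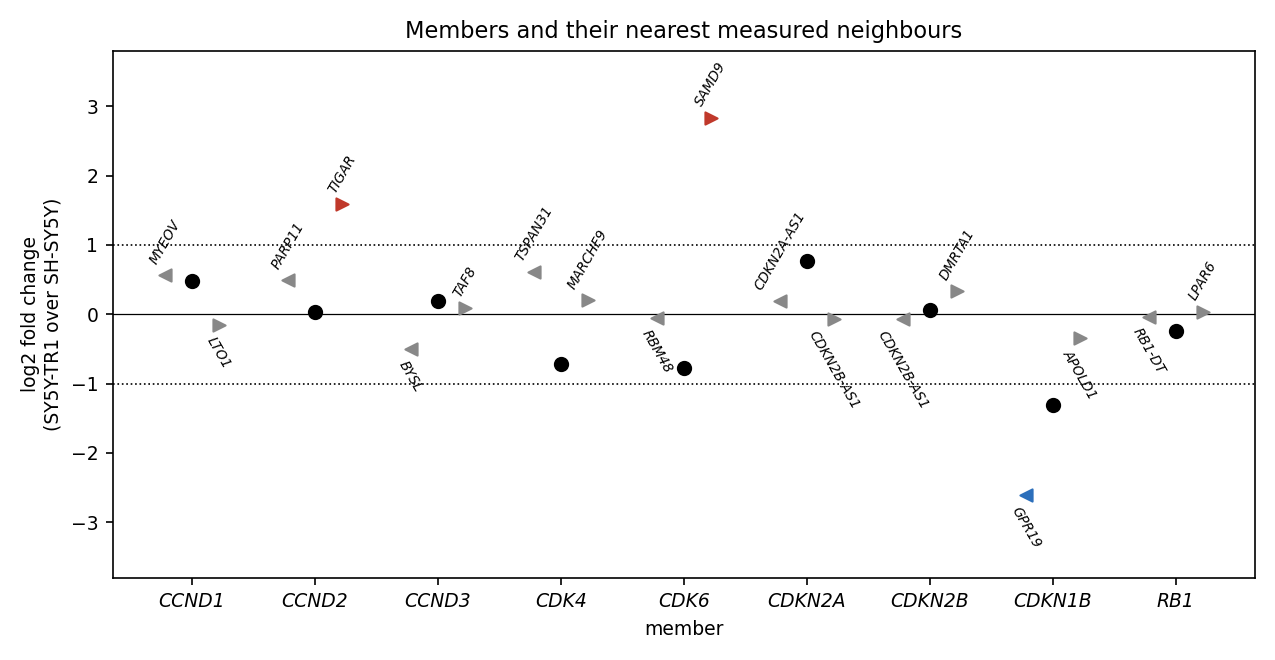
Log2 fold change (y axis, SY5Y-TR1 relative to SH-SY5Y) of each member (black circles, x axis) and of the nearest measured gene before it (left triangle) and after it (right triangle) on its chromosome; red is called higher, blue called lower and grey not called, and dotted lines mark 2-fold. SAMD9 and TIGAR stand above the upper dotted line and GPR19 below the lower one, beside members at -0.78, 0.03 and -1.31.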

How the data were processed

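RNA of each line was measured on 3 Affymetrix arrays. The log2 signals deposited by the authors came from RMA (background correction, quantile normalization and probe set summary), run with Affymetrix Expression Console per the submitters' processing notes, whose version was not given in the sources used here. After 62 control probe sets were left out, 41091 of 54613 carried 1 symbol in the platform annotation, 1801 several and 11721 none. Genes and, separately, probe sets were compared with limma 3.58.1 in R 4.3.3 and Benjamini-Hochberg adjustment over all 19775 genes or all 54613 probe sets. The limits are those of the study's heatmap legend, and its methods' t-test was an alternative. The number of arrays limits the precision.

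Members and gene lists were chosen with earlier results of these data known, from general knowledge. Named genes are all members, up to 3 called genes of each list in each direction, by size, 9 genes listed by name, the chromosomal neighbours and the 3 profiles nearest to the member with the largest change. CCNA2, PCNA, SLBP, SKP1, CUL1, TYMS, BUB1 and the cell type markers named singly were named after their values were seen. The scripts were tested on simulated data. Upstream sequences came from a table of RefSeq starts (GRCh38.p14) that held a start for 8 of the 10 members. CCND1 and CCND2 were not in that table, and its RB1 start lies inside the gene and was left out of the motif results of the members. Alternatives covered the choice of probe set, scaling, dim signals, the replicate block, the variance model, the test, the limits and each array left out.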

Additional observations from a re-analysis of the deposited data

How the results depend on the processing

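CDKN1B was called lower under every alternative run, and leaving out 1 array at a time gave log2 fold changes of -1.34 to -1.28. The count of members called higher went from 0 to 1 with probe sets without shared-sequence names (CDKN2A, log2 fold change 1.11) and with a fold of at least 1.5 (CDKN2A), and to 3 with no fold limit. The count called lower went from 1 to 3 (CDK4, CDK6 and CDKN1B) and to 4. Over all genes, 1060 higher and 1185 lower became 2171 and 2162 at 1.5-fold and 5634 and 4813 with no fold limit. For the G1/S genes 2 higher and 10 lower became 9 and 19 with no fold limit, and 1 was higher with values raised to background. With each gene as the mean of its probe sets, 7 G1/S genes were lower, as CDK2 (-0.81), E2F2 (-0.94) and RBL1 (-0.91) were no longer called, and 21 of the E2F targets, without TYMS (-0.87) and BUB1 (-0.88); CDKN1C was still called, at -1.76. For the regulators 2 and 2 became 9 and 9 with no fold limit, and 4 were lower at 1.5-fold. CCND2 turned sign at background when centred on housekeeping genes (-0.0269) and without SH-SY5Y replicate 1 (-0.0358, in a range up to 0.0673), and MYCN with the mean of its probe sets (-0.17) and without shared-sequence names (-0.10). These causes were not tested. CCND2 and CDKN2B gave no value with a filter on dim genes or with values raised to background. Same-numbered arrays did not deviate together (r = -0.0175, -0.0282 and 0.00537), and with the replicate block 0 members were higher, 1 lower, and 1060 and 1185 of all genes were called. Changes of members at background, CCND2 and CDKN2B, could not be measured.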
